A study of Mus musculus with 4 samples.

Results

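The neurotrophins, GDNF and their receptors were followed in the brain mRNA of newborn mice whose mothers were given titanium dioxide nanoparticles (TiO2-NP) in pregnancy. The gene set held Bdnf, Ntf3, Ntrk2, Ntrk3, Ngfr, Gdnf, Gfra1 and Ret. Its members were chosen by gene name, and every array probe whose RefSeq accession belongs to one of them was read. The array carried 20647 genes with such a name and 55681 different probes that are not controls, of which 8 genes and 13 probes were members. All 13 member probes were well above background on all 4 arrays. On these arrays 12 of the 13 member probes differed little between the Sham and TiO2-H brains, with ratios between 0.895 and 1.26. The probe of Gdnf was the exception. It was lower in the TiO2-H pool labelled male and higher in the TiO2-H pool labelled female, and an exposure effect common to both labelled sexes was not seen for it.

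The brains came from offspring of C57BL/6J mice (C57BL/6 in the strain label) at postnatal day 1. Sham dams received 25 μL of a vehicle without particles into the trachea, and TiO2-H dams received 100 μg TiO2-NP per mouse in the same volume. The day of this single exposure is gestational day (GD) 10.5 in the treatment protocol, whereas sample descriptions and design text give GD 14. For each sex of the Sham and of the TiO2-H offspring, the whole-brain RNA of 2 offspring per dam was pooled, from 5 Sham or 6 TiO2-H dams, and 1 array was hybridized. A group is therefore 1 pool, its litters cannot be separated, and values within a sex carry no test. In pooled tissue, fewer cells of a type cannot be told apart from less RNA per cell.

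Neurotrophins are secreted proteins that support the survival, growth and synapses of neurons. BDNF (from Bdnf) binds mainly TrkB (from Ntrk2), and NT-3 (from Ntf3) binds mainly TrkC (from Ntrk3); both Trk receptors are tyrosine kinases that also exist as truncated forms without the kinase. The p75 receptor (from Ngfr) binds all neurotrophins and their precursors. GDNF is a distant relative of the TGF-beta family, known for its support of dopaminergic and motor neurons. It binds the membrane-anchored coreceptor GFRα1 (from Gfra1), and the pair activates the receptor tyrosine kinase RET.

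The sequence upstream of the transcription start is shown for the member that varied most across the arrays, Gdnf, and for the member that varied least, Ngfr. Both come from RefSeq with assembly GRCm38.p6 and are the 250 bases that precede a start, written in the direction of transcription, with CpG dinucleotides, the sites of DNA methylation, in capitals. The window of the first Gdnf start lies at chr15:7809798-7810047 on the plus strand and holds 7 CpG, and that of Ngfr lies at chr11:95587699-95587948 on the minus strand and holds 16.
Gdnf: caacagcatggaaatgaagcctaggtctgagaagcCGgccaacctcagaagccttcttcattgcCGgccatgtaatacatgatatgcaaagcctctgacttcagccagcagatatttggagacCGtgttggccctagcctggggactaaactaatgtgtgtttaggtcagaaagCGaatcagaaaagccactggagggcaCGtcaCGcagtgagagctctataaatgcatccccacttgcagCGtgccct
Ngfr: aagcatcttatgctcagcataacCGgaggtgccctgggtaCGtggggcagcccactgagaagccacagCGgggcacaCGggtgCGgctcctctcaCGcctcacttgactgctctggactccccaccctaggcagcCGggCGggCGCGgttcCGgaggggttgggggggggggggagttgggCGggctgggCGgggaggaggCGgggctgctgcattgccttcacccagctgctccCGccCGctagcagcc
A second Gdnf start had 14 CpG in its window. Of the other members with a window, Ntrk2 had 19 CpG, Gfra1 had 10, the 2 windows of Ntf3 had 11 and 14, and the 7 windows of Bdnf, a gene with many alternative first exons, had between 1 and 13. Over all 32851 windows of this length in the same table the median was 6 CpG and the quartiles were 2 and 16, so that the windows of Ntrk2 and Ngfr were at or above the upper quartile and the first Gdnf window was close to the median. The palindrome TGACGTCA, the full cAMP response element, which reads the same on both strands, was in 0 of the 14 member windows and in 1.55% of all windows. Methylation at these sites was not analysed here.

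Signals were scaled to the 75th percentile of each array's non-control spots, which was 810 and 795 on the Sham arrays and 867 and 871 on the TiO2-H arrays, and are given below as a percentage of it. Between 56.2% and 61.2% of spots were well above background. The error that the scanner software assigns to a bright spot is about 10% of its signal, or 0.20 on the log2 scale for a ratio of 2 arrays. Both Sham arrays lay in one row of the slide and both TiO2-H arrays in the other, so that exposure, litter and slide row cannot be told apart. Per the study's methods, the sex of each pup was determined by PCR of Sry in tail DNA. RNAs that differ between the sexes went against the labels of the TiO2-H arrays. Xist, the RNA of the inactive X chromosome, was at 34.7% in the female Sham pool and 40.0% in the TiO2-H pool labelled male, and was not well above background in the remaining pair. The Y-linked Ddx3y was at 175% and 17.9% in the male and female Sham pools and at 205% in the TiO2-H pool labelled female, and was not well above background in that labelled male. The female Sham pool thus held some Y-linked RNA: Ddx3y and Eif2s3y (52.7%, against 434% in the male Sham pool) were well above background there, though Uty was not. Results within a sex are therefore given by label, and again with the TiO2-H arrays exchanged.

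In the 2 TiO2-H arrays against the 2 Sham arrays, the contrast that does not use the sex labels, 8 of the 13 member probes were higher on both TiO2-H arrays than on both Sham arrays. These 8 probes came from Bdnf, Ntrk2, Ntrk3, Ngfr and Gfra1. No member probe was lower without overlap, and 5 overlapped. Over all 35625 probes tested, 26.3% were higher and 26.9% were lower without overlap. The log2 difference was positive for 12 of 13 member probes, against 50.1% of all probes, and its median was 0.11 for the member probes and 0.00062 for all probes. Several member probes read the same gene and are not independent. With limma and Benjamini-Hochberg adjustment over all probes, 0 member probes and 0% of all probes had an adjusted p under 0.05, and the lowest adjusted p of any probe was 0.311. Before adjustment, 2 of the 13 member probes (1 of Ntrk2 and 1 of Ntrk3, both higher in TiO2-H) had p under 0.05; 8.56% of all probes did so in that direction and 13.9% in either direction. The smallest p that an exact permutation test can reach with 2 arrays on each side is 0.333.

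**Figure D1:**
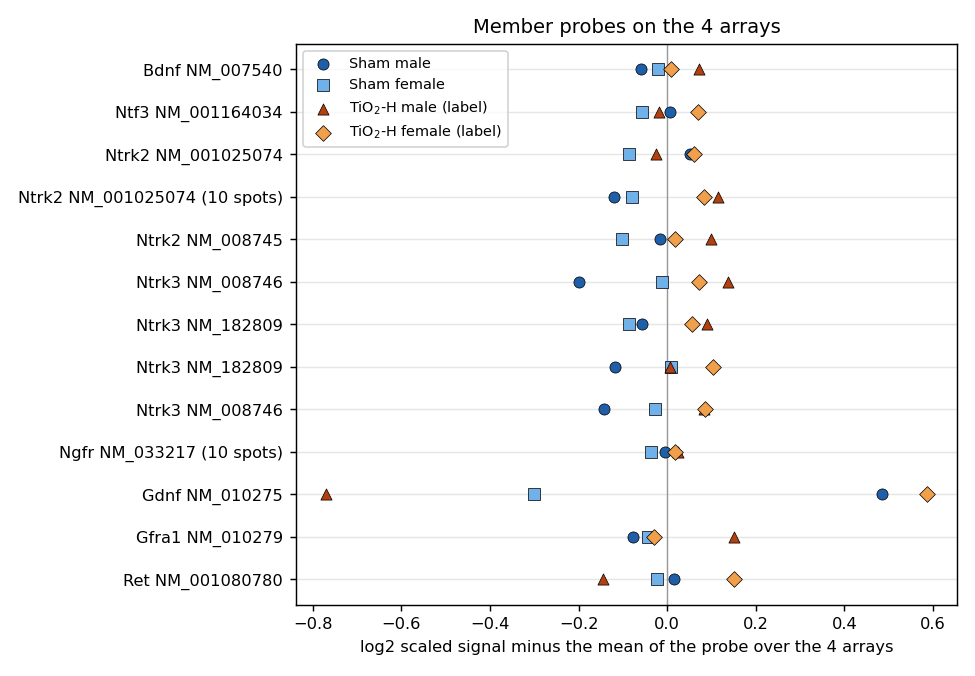
Each row is a member probe and each point an array; the horizontal axis is the log2 scaled signal minus the probe's mean over the 4 arrays. The TiO2-H arrays lie to the right of the Sham arrays for 8 of 13 probes, by little, and Gdnf alone spreads over more than 1 log2 unit.

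Bdnf, the most studied neurotrophin of the brain, was read by 1 probe (NM_007540). Its signal was 40.1% and 41.2% in the male and female Sham pools, and 43.9% and 42.1% in the TiO2-H pools labelled male and female. Both TiO2-H arrays were above both Sham arrays, but the lowest and the highest array were only 0.13 apart on the log2 scale, less than the scanner's error for a ratio (0.21). The pooled log2 difference was 0.08 ± 0.05 (SE, n = 2 arrays against 2; limma adjusted p = 0.497), with a 95% interval from -0.07 to 0.23.

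Ntf3, which encodes NT-3, was read by 1 probe (NM_001164034), with signals of 158% and 151% in the male and female Sham pools and 156% and 165% in the TiO2-H pools labelled male and female. The Sham male array lay between the TiO2-H arrays, so the groups overlapped. The pooled log2 difference was 0.05 ± 0.06 (SE; limma adjusted p = 0.678), and its 95% interval ran from -0.13 to 0.23.

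Ntrk2, the TrkB receptor, was read by 3 probes, of which 2 carry the accession of the transcript with the kinase (NM_001025074) and 1 that of the truncated receptor (NM_008745). The files do not give the position of a probe, so that each may also detect the other transcript. One probe of the kinase transcript was spotted 10 times per array. Its mean signal was 443% and 456% in the male and female Sham pools and 522% and 510% in the TiO2-H pools labelled male and female. The ratio of TiO2-H to Sham was 1.18 by the male labels and 1.12 by the female labels. This was the member probe with the smallest p, with a pooled log2 difference of 0.20 ± 0.05 (SE, n = 2 against 2), a 95% interval from 0.06 to 0.34, an unadjusted limma p of 0.0184 and an adjusted p of 0.351.

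The spots of this probe show how tightly a single array was read. They ran from 417% through a median of 440% to 470% on the Sham male array, and from 436% through 462% to 481% on the Sham female array (9 spots, 1 left out as an outlier). On the array labelled TiO2-H male they ran from 495% through 518% to 551%, and on the array labelled TiO2-H female from 466% through 511% to 543%. The lowest spot on the array labelled TiO2-H male was thus above every spot of both Sham arrays, whereas the array labelled TiO2-H female overlapped them. Between the spots of an array the log2 signal had an SD of between 0.05 and 0.07, but spots of an array share 1 pool of RNA and are not replicates of an exposure.

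**Figure D2:**
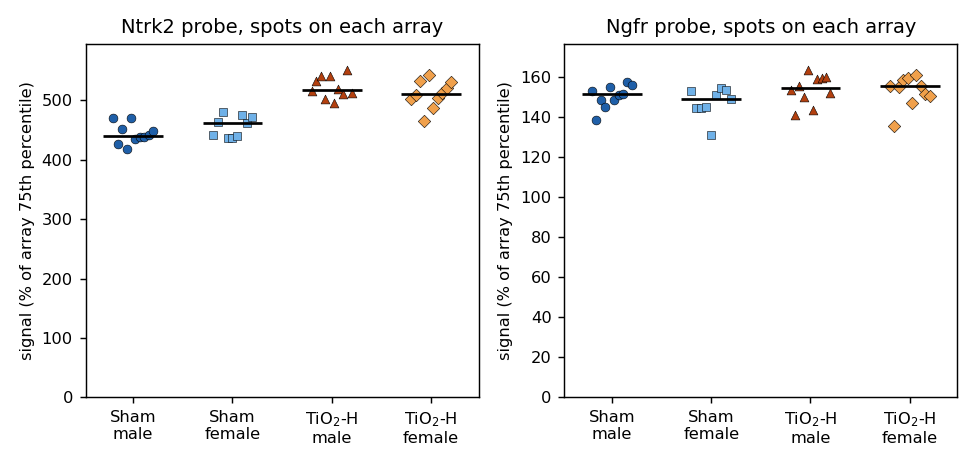
Signal of each spot, as a percentage of the array's 75th percentile, for the Ntrk2 and the Ngfr probe that are spotted 10 times; bars are medians over the spots of 1 array. The Ntrk2 medians are 440% and 462% on the Sham arrays and 518% and 511% on the TiO2-H arrays, and the Ngfr medians lie between 149% and 155% on all 4.

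The other probe of the kinase transcript did not separate the groups. Its signal was 704% and 640% in the male and female Sham pools and 667% and 709% in the TiO2-H pools labelled male and female. Its pooled log2 difference was 0.03 ± 0.08 (SE; limma adjusted p = 0.833), and the 95% interval of -0.20 to 0.26 takes in the difference seen with the 10-spot probe. The probe of the truncated transcript was at 66.5% and 62.6% on the Sham arrays and at 72.0% and 68.0% on the TiO2-H arrays, higher without overlap. Its log2 difference was 0.12 under the labels of either sex and 0.12 ± 0.06 (SE; limma adjusted p = 0.450) in the pooled contrast.

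Ntrk3, the TrkC receptor, was read by 4 probes, 2 with the accession of the kinase transcript (NM_008746) and 2 with that of a truncated transcript (NM_182809). All 4 had a positive log2 difference under the labels of both sexes, and 3 of the 4 were higher on both TiO2-H arrays without overlap. The brighter kinase probe was at 386% and 440% in the male and female Sham pools and at 488% and 466% in the TiO2-H pools labelled male and female. Its ratio of 1.26 by the male labels was the highest among the member probes. Its pooled log2 difference was 0.21 ± 0.09 (SE, n = 2 against 2; limma adjusted p = 0.394), with a 95% interval of -0.06 to 0.48. The dimmer kinase probe was at 92.3% and 99.95% on the Sham arrays and at 107.8% and 108.0% on the TiO2-H arrays, with a pooled log2 difference of 0.17 ± 0.06 (SE; limma adjusted p = 0.370).

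Of the truncated Ntrk3 transcript, the brighter probe was at 249% and 244% on the Sham arrays and at 275% and 269% on the TiO2-H arrays. It had a pooled log2 difference of 0.14 ± 0.04 (SE), an unadjusted limma p of 0.0406 and an adjusted p of 0.354. The dimmer one was at 227% and 248% in the male and female Sham pools and at 247.5% and 265% in the TiO2-H pools labelled male and female. There the Sham female array and the array labelled TiO2-H male were level, and the pooled log2 difference was 0.11 ± 0.07 (SE; limma adjusted p = 0.518). Probes of the kinase and of the truncated transcript therefore shifted by amounts whose intervals overlap.

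Trk receptors are made by neurons, and truncated TrkB also by astrocytes. The 4 markers of brain neurons (Tubb3, Stmn2, Map2, Snap25) summed to 30057% and 30200% in the male and female Sham pools and to 29623% and 30781% in the TiO2-H pools labelled male and female, so that their sum did not separate the groups. The pooled log2 difference was 0.16 for Map2 and 0.19 for Snap25, both higher without overlap, -0.05 for Tubb3, lower without overlap, and -0.01 for Stmn2, which overlapped (limma adjusted p from 0.351 to 0.959). The 5 markers of radial glia and astrocytes summed to 12242% and 11446% on the Sham arrays and to 12772% and 12955% on the TiO2-H arrays, without overlap. Most of this sum was Fabp7, at 9194% and 8270% on the Sham arrays and 9757% and 9949% on the TiO2-H arrays. Fabp7 and Slc1a3 were higher without overlap, Aldh1l1 and Gfap were lower without overlap, and Aqp4 overlapped. The part of these neuronal and glial markers in the Ntrk2 and Ntrk3 values was not tested.

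Ngfr, the p75 receptor, was the steadiest member. Its probe (NM_033217), spotted 10 times, was at 150.3% and 147% in the male and female Sham pools and at 153.5% and 152.7% in the TiO2-H pools labelled male and female. The highest array was 1.04-fold the lowest. Both TiO2-H means were above both Sham means, yet the spots of all 4 arrays overlapped, from 131% to 163%. The pooled log2 difference was 0.04 ± 0.04 (SE, n = 2 against 2; limma adjusted p = 0.643), and its 95% interval of -0.09 to 0.17 is the narrowest among the members.

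Gdnf was the one member past the study's thresholds of 1.5-fold and 0.67-fold, and it passed them in opposite directions under the labels of the 2 sexes. Its probe (NM_010275) was at 13.7% in the male and 7.95% in the female Sham pool, and at 5.74% in the TiO2-H pool labelled male and 14.7% in that labelled female. The male Sham pool and the TiO2-H pool labelled female were thus high and the remaining pair low. In processed signal these are 111, 63.2, 49.8 and 128, all well above background, where the dimmest accepted signals on the 4 arrays were 30.4, 31.7, 29.5 and 23.3. The scanner's error was 11.4%, 14.3%, 15.5% and 10.7% of the signal in the same order, more than for the other members.

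The TiO2-H to Sham ratio of Gdnf was 0.419 by the male labels, a log2 difference of -1.26 with a scanner error of 0.28. By the female labels it was 1.85, a log2 difference of 0.89 with a scanner error of 0.26. With normexp background correction on the median signals these ratios were 0.650 and 1.46, the second no longer past its threshold. The scanner error covers the reading of 1 spot and not the variation between litters or pools. On the arrays labelled male, 0 member probes reached 1.5-fold and 1 was at or below 0.67-fold, against 4.08% and 3.28% of all probes. On the arrays labelled female, 1 reached 1.5-fold and 0 were at or below 0.67-fold, against 2.65% and 3.31% of all probes. Among the 4110 probes of a level near that of Gdnf, 9.12% were past either threshold by the male labels and 7.52% by the female labels.

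The pools of one exposure differed in Gdnf as well. The female to male ratio was 0.580 in Sham and 2.56 in TiO2-H by label, log2 differences of -0.79 and 1.36. No other member probe was past a threshold in these comparisons. Of all probes, 3.17% reached 1.5-fold and 3.15% were at or below 0.67-fold between the Sham pools, and 2.05% and 4.16% between the TiO2-H pools. Among the probes near the level of Gdnf, 6.67% and 5.57% were past either threshold between the Sham and the TiO2-H pools. In the pooled contrast the arrays of the 2 exposures overlapped, with both Sham arrays between the TiO2-H arrays, and the log2 difference was -0.18 ± 0.62 (SE, n = 2 against 2; limma adjusted p = 0.892), with a 95% interval from -2.06 to 1.69. This interval does not show that Gdnf was alike in the 2 exposures.

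With the TiO2-H arrays exchanged, so that each Sham array was compared with the TiO2-H array that shared its high or low Xist signal, Gdnf did not pass a threshold. The array labelled TiO2-H female was then 1.07-fold the Sham male array, a log2 difference of 0.10, within the scanner error of 0.23. The array labelled TiO2-H male was 0.722-fold the Sham female array, a log2 difference of -0.47 against a scanner error of 0.30. In order of level the arrays were the one labelled TiO2-H male, Sham female, Sham male and the one labelled TiO2-H female, and the last 2 of them did not differ beyond the scanner's error. For all other member probes no pair of neighbouring arrays in such an order differed beyond it. In limma, the SE of the pooled difference of Gdnf was 0.72 with sex as labelled in the fit and 0.20 with sex exchanged within TiO2-H, and the adjusted p was 0.909 and 0.702.

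Few probes had the same pattern as Gdnf. In 29 of the 35625 probes tested, or 0.0814%, both the male Sham pool and the TiO2-H pool labelled female were at least 1.5-fold above the remaining pair, as Gdnf was by at least 1.72-fold. These 29 included the Y-linked Ddx3y and Eif2s3y. The opposite pattern was seen in 25 probes, including Xist. Gdnf is itself autosomal, on chromosome 15.

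**Figure D3:**
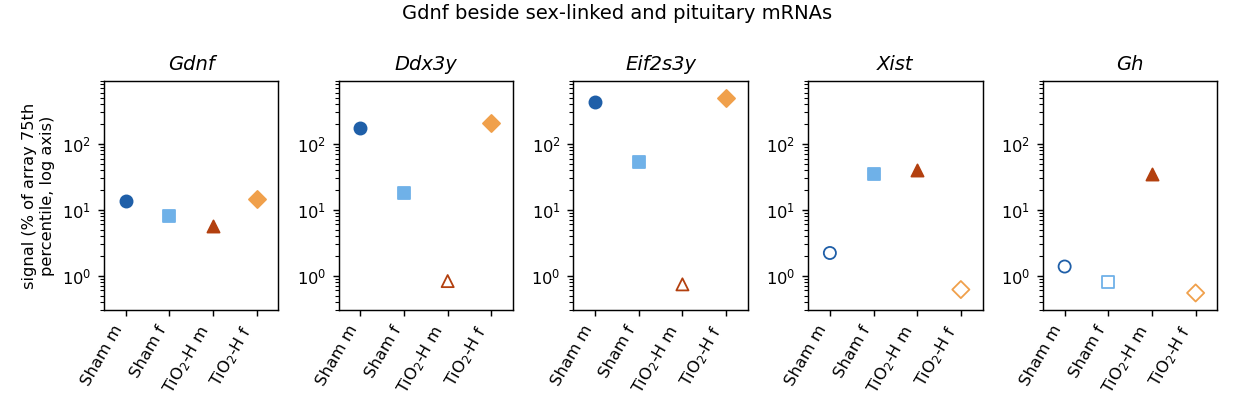
Signal of Gdnf, the Y-linked Ddx3y and Eif2s3y, Xist and the pituitary hormone gene Gh on each array (m and f are the labelled sexes), as a percentage of the array's 75th percentile on a log axis; open symbols are not well above background. Gdnf, Ddx3y and Eif2s3y are high in the male Sham pool and the TiO2-H pool labelled female, Xist is high on the remaining pair, and Gh is detected on the array labelled TiO2-H male alone.

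The array with the lowest Gdnf signal also stood apart in mRNAs that mark the pituitary. Gh, which encodes growth hormone of the anterior pituitary, was at 34.7% on the array labelled TiO2-H male while the remaining pools were not well above background. Pomc, expressed in pituitary and hypothalamus, was at 70.6% and 71.7% in the male and female Sham pools, and at 110% and 67.8% in the TiO2-H pools labelled male and female. The other pituitary markers, Prl and Cga, were not well above background on any array, and the 2 that were tested summed to 72.0%, 72.5%, 145% and 68.3%. Their part in the Gdnf value was not tested. The 5 markers of dopaminergic neurons summed to between 1168% and 1204% on the 4 arrays, and the 5 tested markers of motor and cholinergic neurons to between 278% and 281%. The cholinergic sum was higher in the same pair of pools as Gdnf, within that narrow range, and the dopaminergic sum was not.

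Gfra1, the GDNF coreceptor, was read by 1 probe (NM_010279) at 27.8% and 28.4% in the male and female Sham pools and at 32.5% and 28.7% in the TiO2-H pools labelled male and female. The array labelled TiO2-H male stood above the other arrays, which lay close together. The ratio was 1.17 by the male labels and 1.01 by the female labels. The pooled log2 difference was 0.12 ± 0.08 (SE, n = 2 against 2; limma adjusted p = 0.521), with a 95% interval from -0.13 to 0.37.

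Ret, the signalling receptor for GDNF, was read by 1 probe (NM_001080780) at 66.1% and 64.4% in the male and female Sham pools and at 59.2% and 72.7% in the TiO2-H pools labelled male and female. The TiO2-H arrays lay on either side of the Sham arrays. The order of the 4 arrays was the same as for Gdnf, over a range of 0.30 on the log2 scale where Gdnf spanned 1.36. The pooled log2 difference was 0.01 ± 0.12 (SE; limma adjusted p = 0.980) with a 95% interval from -0.37 to 0.38.

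Within a labelled sex the 12 probes other than Gdnf had ratios of TiO2-H to Sham between 0.895 and 1.26 by the male labels and between 1.01 and 1.13 by the female labels. The median log2 difference of the 13 member probes was 0.13 and 0.12 by the male and female labels, against 0.01 and 0.00386 over all probes. The highest and lowest arrays were further apart than the scanner's error for 7 of the 13 probes. Leaving out Gdnf, the highest array was between 1.04-fold and 1.26-fold the lowest.

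The remaining ligands and receptors of both families formed a list of 20 genes, of which 16 were well above background on at least 1 array. By the brightest probe of each gene, 6 were higher and 5 lower on both TiO2-H arrays without overlap, where 28.5% and 27.1% of all 16161 genes tested were. None of the 16 was past 1.5-fold or 0.67-fold under the labels of either sex, and the median of their pooled log2 differences was 0.06. Ntf5, which encodes the other TrkB ligand, NT-4, was not well above background, nor were Pspn, Gfral and Gdf15. Sorcs1, a sortilin-family sorting receptor, had an unadjusted limma p of 0.0336, with a log2 difference of 0.21 ± 0.06 (SE; adjusted p = 0.351). It was named, like the pathway genes in the next paragraph, after the values were seen.

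The adaptors and kinases downstream of the Trk and RET receptors formed a list of 43 genes, all tested. Of these, 12 were higher and 14 lower without overlap, and the median pooled log2 difference was -0.02. Sos1, which activates Ras, was the one gene past a threshold, with a ratio of 0.666 by the male labels and 1.20 by the female labels. Genes with an unadjusted limma p under 0.05 included Dok6, a docking protein that binds RET, with a log2 difference of 0.32 (adjusted p = 0.351), Crk with 0.14 (adjusted p = 0.355) and Rapgef1 with -0.14 (adjusted p = 0.357). Among 19 genes that process proBDNF or regulate Bdnf transcription, 18 were tested, 5 were higher and 5 lower without overlap, and the median was -0.01. Unadjusted p was under 0.05 for the activity-regulated transcription factor Npas4 with 0.32, the prohormone convertase Pcsk1 with 0.21 and the transcription factor Usf1 with -0.18 (limma adjusted p = 0.351 for each). Over the 3 lists, 0 of the 77 genes tested had an adjusted p under 0.05, 9 had an unadjusted p under 0.05 (2071 of all 16161 genes did), and 0 were past a threshold in the same direction under the labels of both sexes. The median over all genes was 0.0043.

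**Figure D4:**
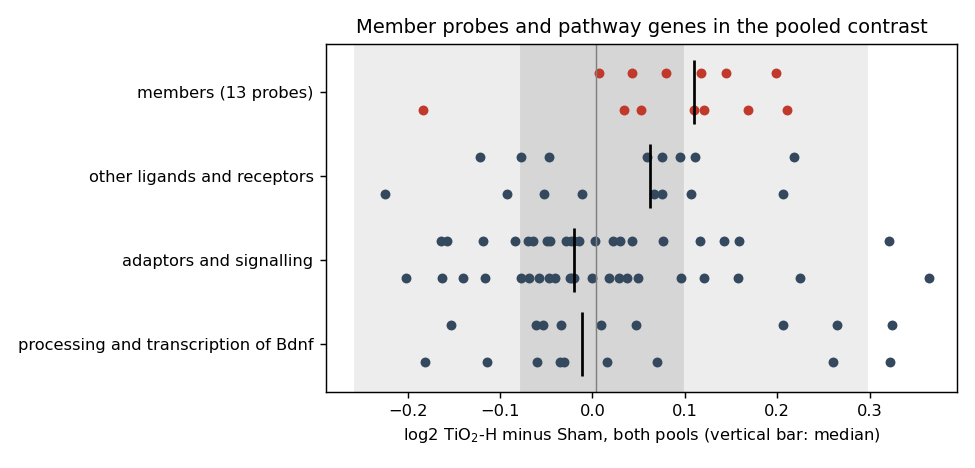
Pooled log2 difference of TiO2-H minus Sham for the 13 member probes (red) and for the tested genes of the 3 pathway lists (dark points, brightest probe of each gene); black bars are medians, and the grey bands hold the 25th to 75th and the 5th to 95th percentile of all genes. The medians are 0.11 for the member probes and 0.06, -0.02 and -0.01 for the lists. The median of the members is not on the same basis, since Ntrk2 enters with 3 probes and Ntrk3 with 4. By the brightest probe of each gene, the members are at 0.08 (Bdnf), 0.05 (Ntf3), 0.03 (Ntrk2), 0.21 (Ntrk3), 0.04 (Ngfr), -0.18 (Gdnf), 0.12 (Gfra1) and 0.01 (Ret).

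Some markers of other cells of the brain and its coverings also separated the exposures, as 28.5% (higher) and 27.1% (lower) of all genes did. The 3 tested blood genes were lower on both TiO2-H arrays, with sums of 10653% and 10364% on the Sham arrays and of 8823% and 8776% on the TiO2-H arrays. The 4 genes of meninges and mesenchyme and the 3 genes of microglia were all higher, with sums from 1192% to 1221% against 1315% to 1324%, and from 1137% to 1164% against 1260% to 1269%. Of the 3 endothelial genes 1 was higher without overlap, near that share, with sums of 713% and 679% against 784% and 777%. The 4 Schwann cell genes summed to between 277% and 304%, and the 3 tested genes of sensory ganglia to between 208% and 214%. The 3 choroid plexus genes summed to 8485% and 8245% on the Sham arrays and to 7995% and 8118% on the TiO2-H arrays. Of these genes Ttr was lower without overlap, and Kl and Folr1 overlapped. Avil and Scn10a, which mark sensory neurons, were not well above background. The shifts of the blood, meningeal, microglial and endothelial genes were of the size of those in Ntrk2 and Ntrk3. The part of any of these markers in the Ntrk2 and Ntrk3 values was not tested.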

How the data were processed

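mRNA was measured on 4 one-color Agilent arrays, 1 pool of whole-brain RNA each. The authors deposited the scanner output and a table of processed values, both as intensity, made with Feature Extraction 10.10.1.1, which subtracts local background; the deposited table equalled the scanner values for all 59305 non-control spots. Here the log2 of each processed signal minus the log2 of the array's 75th percentile was used, outlier spots were left out and spots of a probe averaged. Comparisons took in the probes well above background on 1 or more of the arrays compared; on the others it took its own signal or, if higher, the lowest signal well above background there. Accessions were named through a RefSeq table (GRCm38.p6), which held 98.0% of the NM and NR accessions. The array's annotation is older, so no probe positions are given.

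Precision is limited by the number of arrays. limma 3.58.1 (R 4.3.3) compared 2 TiO2-H with 2 Sham arrays, with Benjamini-Hochberg adjustment over all probes; p-values measure only the spread between these pools. Within a sex, ratios of 1 array to 1 array were read against 1.5-fold and 0.67-fold. Python 3.11.15, numpy 2.4.6, pandas 2.3.3 and matplotlib 3.10.9 were also used, and the limma step was tested on simulated data. All members were named with every probe; list genes were to be named if past a threshold in both labelled sexes, or in either for ligands and receptors. The members and lists were chosen with earlier results of these data known. The alternatives were other scalings, normexp with an offset of 50 on the median signals (mean signals not being held in the files), the deposited table, other filters, outlier spots kept, the mean of a gene's probes, a 2-fold threshold, sex terms, exchanged sex labels and each array left out. Arrays of CpG island methylation were not used here. Some genes of the lists are counted but not reported by name here.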

Additional observations from a re-analysis of the deposited data

Results flagged for a closer look

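Each of 4 member probes moved one way under the male labels and the other way under the female labels, with 1 array per group, and the difference between the labelled sexes was not tested. For Gdnf (NM_010275) the log2 differences of TiO2-H minus Sham were -1.26 and 0.89 on the arrays labelled male and female, 2.14 apart. For Ret (NM_001080780) they were -0.16 and 0.17, 0.33 apart. For the brightest probe of Ntrk2 (NM_001025074) they were -0.08 and 0.15, 0.22 apart, and for Ntf3 (NM_001164034) -0.02 and 0.13, 0.15 apart. Values of Ret, Ntrk2 and Ntf3 under the labels of a single sex were within the scanner's error of about 0.20. With the TiO2-H arrays exchanged, Gdnf and Ret still had opposite signs (0.10 and -0.47 for Gdnf, 0.14 and -0.12 for Ret), whereas Ntrk2 (0.01 and 0.06) and Ntf3 (0.07 and 0.04) had the same sign.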

How the results depend on the processing

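Exchanged sex labels, normexp (which also replaced the processed by the median signals) and leaving out single arrays each moved some results. With the TiO2-H arrays exchanged, the count of members past a threshold went from 1 to 0 under the labels of each sex, and the Gdnf log2 difference reversed from -1.26 to 0.10 (male) and from 0.89 to -0.47 (female). With normexp, Gdnf was at -0.62 (male, 0.650-fold, still past 0.67-fold) and 0.55 (female, 1.46-fold, no longer past 1.5-fold), and the count was 0 under the female labels and 0 between the Sham pools. At a 2-fold threshold it was 0 under the female labels. In the pooled contrast the brightest probe of Ntrk2 went from 0.03 to -0.0028 and Ret from 0.0075 to -0.070 with normexp. With 1 array left out, the lone array of an exposure being assumed to vary like the others, the pooled log2 difference ranged from -0.034 (without Sham female) to 0.10 for Ntrk2, being -0.0090 without TiO2-H female, and from -0.14 (without TiO2-H female) to 0.16 for Ret, being -0.01 without Sham female. For Gdnf it ranged from -0.86 to 0.50, being 0.50 without TiO2-H male and 0.21 without Sham male. Every setting of the pooled contrast gave 0 member probes with an adjusted p under 0.05, with a lowest adjusted p between 0.160 (no scaling) and 0.536 (without Sham male) and between 0 and 8 probes under 0.05 before adjustment. Without scaling, the median of all probes moved to 0.12, and 11 of the 13 member probes were higher without overlap, where 53.1% of all probes were. The causes were not tested. No paired analysis was possible because each group is 1 array and the labels number no replicates; with labelled sex as a term in its place, 0 member probes were called, and Gdnf had an SE of 0.72 and an adjusted p of 0.909. Depth does not apply to arrays; the signal of Gdnf was the closest to background among the members.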
